A study of Mus musculus with 3 samples.

Results

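Processed pseudogenes are copies of messenger RNAs that were reverse transcribed and inserted into the genome, so they usually lack introns, sit away from the gene they came from and have no promoter of their own by inheritance. Genes with abundant messenger RNA in the germ line, such as those of ribosomal proteins and glycolytic enzymes, have left many such copies. Because a young copy can be letter for letter like its parent, a sequencing read may fit both, and software has to divide such reads between them. The genes described here are the processed pseudogenes of the GENCODE annotation that reached a set level in bone-marrow-derived macrophages, set beside the coding gene each most resembles.

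Members were selected on level: a transcript biotype of processed_pseudogene and a mean of at least 1 TPM (a count per length scaled to a fixed library total) over the 3 gene tables. Of 55450 genes, 9943 had the biotype, 1751 of these had a TPM above 0 in at least 1 library, and 173 were members. The data were ribosomal-RNA-depleted total RNA sequencing, from 1 µg of RNA, of the cytosolic fraction of C57BL/6J mouse macrophages grown from marrow. All 3 libraries belonged to 1 group, which had received lipid A at 100 ng/ml for 12 hours, 12 hours without it, and lipid A again at 100 ng/ml for 60 minutes. The age and sex of the animals were not collected, and the libraries share a donor entry, so tests measure the spread between these samples. No untreated cells were analysed here, so every value is a level and none is a response.

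The gene tables held 50801313, 53358833 and 46540998 expected counts on these genes in replicates 1, 2 and 3, so 3 counts correspond to between 0.0562 and 0.0645 CPM (counts scaled to a fixed library total), a limit for counting error only. The macrophage label was checked on 8 marker genes, all of which were present, from 24.6 TPM (Itgam) to 4300 TPM (Lyz2) as the lowest and highest values in any library. Of 10 markers of other cells, 8 stayed at or under 0.09 TPM, while the collagen genes Col1a1 (0, 2.53 and 1.28 TPM) and Col3a1 (0, 2.03 and 0.77 TPM) had reads in replicates 2 and 3.

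Most members closely resembled a coding gene, with 133 (76.9%) matching at 99% identity or more. In 16 the match was under 95% identical, and these held 10925 of the members' 42800 summed mean expected counts. Whether likeness itself helped a copy to pass the rule was not tested. The best nucleotide match among coding transcripts of other genes had a median identity of 99.8% for the 172 members with a match. For 1575 pseudogenes with a TPM above 0 in some library but a mean under 1 the median was 96.4%, and for 8085 listed at 0 TPM in every gene table it was 86.9%. In 60 members (34.7%) the whole annotated transcript was identical to a stretch of a coding transcript, against 1.90% and 0.623% of the other groups. In 3 of the 60 that coding gene overlapped the member's own locus, so their identity is not that of a copy elsewhere. Annotated in a single exon were 170 of the 173, while the matched transcripts had a median of 5 exons. The longest reading frame of 41 members encoded the same protein as the match (23.8%, against 3.11% and 0.210%).

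The sequence of a copy sets which reads can be told from those of its parent. Each transcript was therefore split into every stretch of 31 bases, here called windows, and a window found in no transcript of another gene on either strand was counted as the copy's own. Members had a median of 3.20% own windows. In 68 there were none, in 89 there were some but under 50%, and in 16 at least 50%. Among pseudogenes listed at 0 TPM in every gene table the median was 89.8%.

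The following stretches of 90 bases show the range, from a copy with many differences from its parent to copies that are the same. They come from the GENCODE M21 transcripts (mm10), run 5′ to 3′, and have bases that differ between copy and parent in capitals. Gm6548, at chr17:78850909-78850998 on the minus strand, differs from the coding sequence of the elongation factor Eef1a1 at 8 of the 90 positions shown. This stretch was picked as the 1 that differs most. Over its whole length Gm6548 has 36 mismatches in 1166 aligned bases (96.7% identity). It was chosen after its values were seen.
Gm6548: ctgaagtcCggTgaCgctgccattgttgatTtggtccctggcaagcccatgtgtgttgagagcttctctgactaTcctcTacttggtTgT
Eef1a1: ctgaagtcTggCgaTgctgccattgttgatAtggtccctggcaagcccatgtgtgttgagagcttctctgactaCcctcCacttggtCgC

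Gm13509, at chr2:49308442-49308531 on the plus strand, and Gm12715, at chr4:103564176-103564265 on the plus strand, are shown at the coding stretch where they differ most from the clathrin adaptor subunit Ap2m1 and from gamma-actin, Actg1. Over their whole length each has 4 mismatches to its parent.
Gm13509: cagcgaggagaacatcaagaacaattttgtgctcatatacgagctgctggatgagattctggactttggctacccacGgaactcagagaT
Ap2m1: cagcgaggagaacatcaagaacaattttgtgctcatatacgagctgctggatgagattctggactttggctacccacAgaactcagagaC
Gm12715: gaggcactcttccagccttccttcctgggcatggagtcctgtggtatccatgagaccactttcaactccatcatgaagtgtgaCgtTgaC
Actg1: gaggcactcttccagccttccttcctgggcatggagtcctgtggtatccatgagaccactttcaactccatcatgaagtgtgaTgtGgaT

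Rps6-ps4, at chr2:75191733-75191822 on the minus strand, and Tpt1-ps3, at chr6:99878245-99878334 on the minus strand, have no base that differs from the ribosomal protein Rps6 and from Tpt1, the translationally controlled tumour protein. The capitals in these lines mark the start codon, and each line is also the start of the parent's coding sequence.
Rps6-ps4: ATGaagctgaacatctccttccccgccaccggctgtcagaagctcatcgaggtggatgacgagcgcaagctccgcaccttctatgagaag
Tpt1-ps3: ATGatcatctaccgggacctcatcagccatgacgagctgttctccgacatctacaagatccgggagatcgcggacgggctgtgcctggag

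Each library had a pair of tables that gave each member a count. The gene tables hold expected counts from reads aligned to transcripts, and a second set of transcript tables, made directly from the reads, holds estimated counts (est_counts), which were summed per gene here. Over 9183 protein-coding genes at a mean of at least 1 TPM the sets were close: the median log2 ratio of est_counts CPM to expected-count CPM (pseudocount 0.1) was -0.13, with 90% of genes between -0.17 and -0.01. For the 173 members the median was -0.84 and the range ran from -6.85 to 4.29. At least 2-fold lower in est_counts were 86 members (49.7%), against 37 coding genes (0.403%), and at least 2-fold higher were 20 (11.6%), against 20 coding genes (0.218%). With a pseudocount of 1 the lower members numbered 42. The rule used the gene tables' TPM, so a lower second value is in part fixed by the choice of members, and no test was made of this difference.

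**Figure D1:**
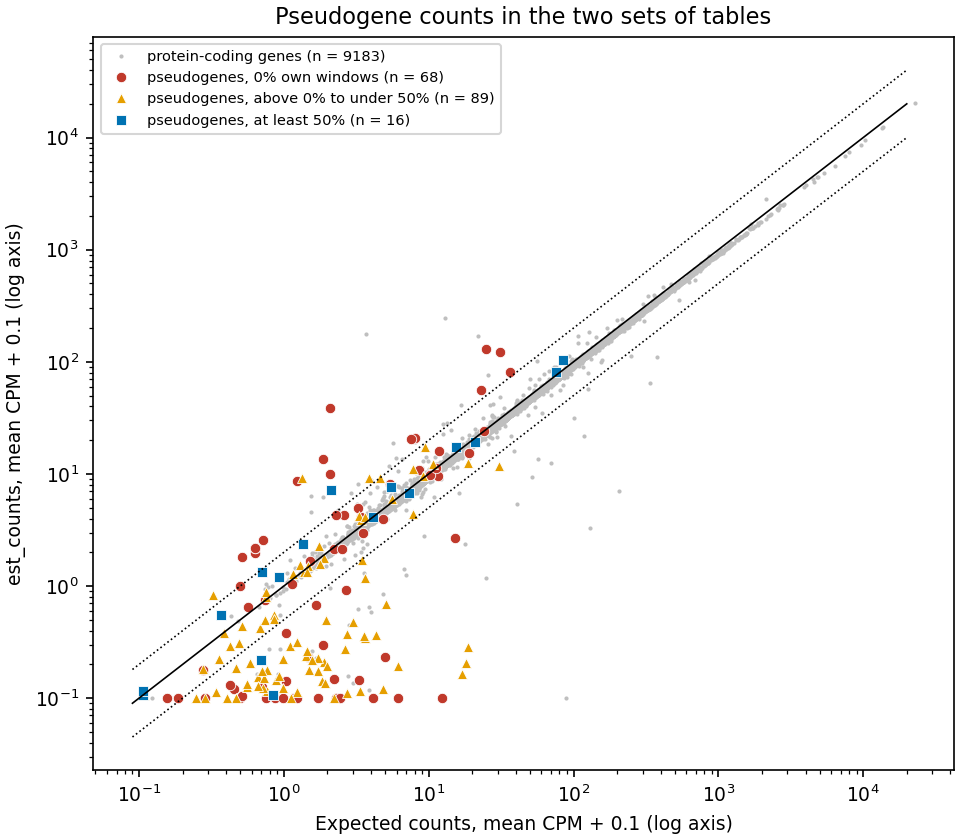
Mean expected-count CPM + 0.1 (x, log axis) against mean est_counts CPM + 0.1 (y, log axis), with 9183 coding genes in grey and the 173 pseudogenes coloured by the percent of their windows that are their own; the solid line marks equal values and the dotted lines 2-fold differences. Coding genes lie along the solid line, while 86 pseudogenes fall below the lower dotted line and 20 lie above the upper one.

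The members were described by their own windows. Of the 68 with none, 29 were at least 2-fold lower and 15 at least 2-fold higher. Of the 89 with some but under 50%, 55 were lower and 4 higher. Of the 16 with at least 50%, 13 lay within 2-fold, Gm35638 (Derl1) and Gm14328 (Fabp5) were lower, and Gm19253 (Mrps36) was higher, all 3 named after their values were seen. The rank correlation over members between own windows and the size of the ratio, taken from the coding median, was -0.10 (n = 173, with libraries shared by all points). Of the 60 members identical to their match, 24 lay within 2-fold, 22 were lower and 14 were higher. For 3 of them the match overlaps the member's own locus. Of the 57 with the match elsewhere, 22 lay within 2-fold, 21 were lower and 14 were higher.

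The gene tables also carry an estimate of the uncertainty of each count. The posterior standard deviation of a member's count, summed over libraries and divided by the summed posterior mean, had a median of 12.8% for members with no own window, 8.62% for those with some and 0% for those with at least 50%. The median over coding genes was 0%. Across members its rank correlation with own windows was -0.52 (n = 173).

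**Figure D2:**
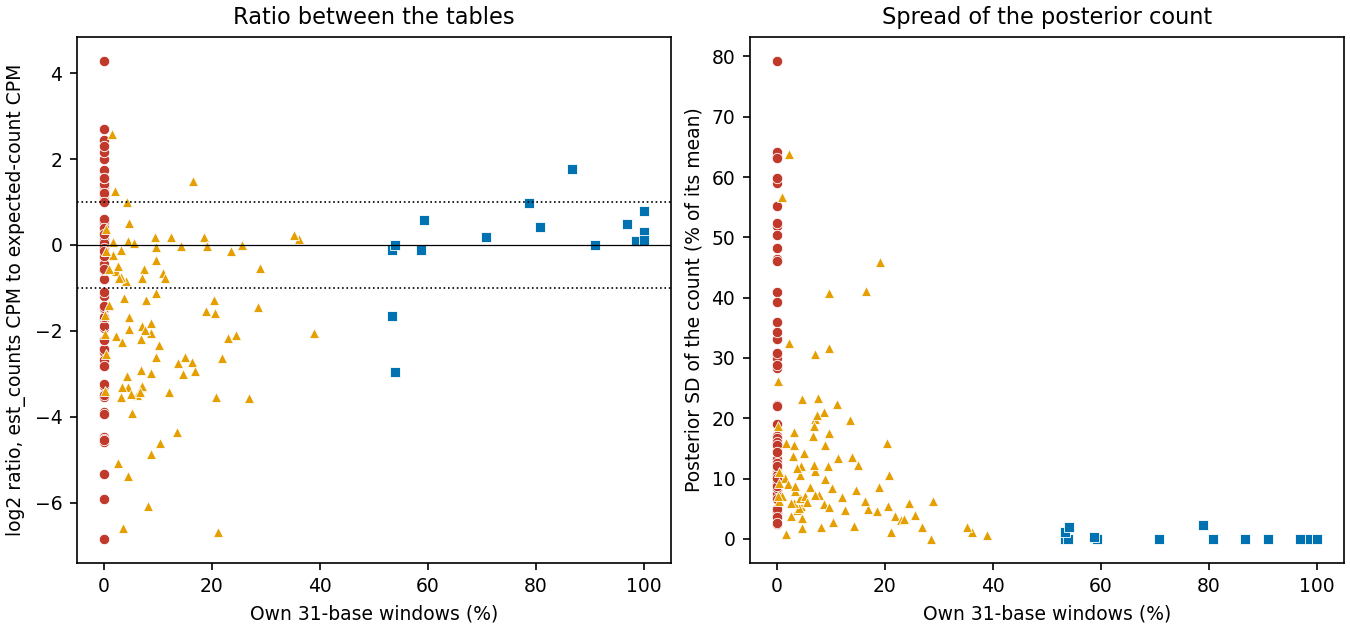
Percent of 31-base windows that are a pseudogene's own (x, both panels) against the log2 ratio of est_counts CPM to expected-count CPM (left, dotted lines at 2-fold) and against the posterior SD of the count as a percent of its mean (right), 1 point per pseudogene, as red circles for 0%, orange triangles for under 50% and blue squares for at least 50% own windows. Ratios run from -6.85 to 4.29 at the left end of the axis, and posterior SDs of the blue squares stay at or under 2.37%.

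A member and its match were also added together. This sum is mostly the match, since the median expected count of a member was 1.32% of its match's. It therefore cannot show how reads were divided within a pair. The summed pair lay within 2-fold between the sets of tables for 169 of 172 pairs, with a median log2 ratio of -0.15, compared with 66 of 172 for the members alone and 168 of 172 for the matches alone. Matches outside 2-fold were those of Gm11425 and Gm49195 (Rpl12), Rps12l1 (Rps12) and Mrpl23-ps1 (Mrpl23), all but Gm49195 named after their values were seen. For Rpl12 the mean was 6613 expected counts and 188.5 est_counts, and for Rps12 10455 and 411.

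Copies of cytosolic ribosomal protein genes, parts of the machine that makes protein, were the largest family, with 52 members. Their median log2 ratio was -2.21, with 36 at least 2-fold lower in est_counts, 5 higher and 11 listed at 0 there. All 52 were below their match in mean TPM. Rps6-ps4, inside an intron of 2600014E21Rik, had 368, 942 and 539 expected counts in replicates 1, 2 and 3. It was listed at 0 est_counts in every library. The pair with Rps6 summed to 11224 expected counts and 11574 est_counts, of which Rps6 alone held 10607 and 11574. Rpl15-ps3 showed the same pattern, with 259, 297 and 346 expected counts and 0 est_counts throughout, while the pair with Rpl15 held 9874 and 10066.

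Rpl28-ps1, identical to Rpl28 over its length and inside an intron of Zranb3, went the other way. It had 170, 83.5 and 50.1 expected counts against 2041, 3212 and 1584 est_counts, the highest ratio of any member (4.29 ± 0.88, SD over 3 libraries). In these est_counts it reached 48.9% of its parent, and in expected counts 1.60%. Gm4332, a copy of Rps20 with 1 mismatch, had 93.2, 61.2 and 34.8 expected counts against 604, 866 and 163 est_counts. Every library of both genes was higher in est_counts.

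Of the most abundant ribosomal copies, Gm7536 (Rpl27a), in an intron of Naaladl2, stood at 95.8, 111 and 84.1 TPM, below its parent in each library (98.0, 117 and 84.6 TPM) but with overlapping ranges, and its est_counts of 4510, 6225 and 3630 were higher than its expected counts of 1626, 2393 and 1524 in each library. Rpl31-ps8 stood at 98.9, 93.7 and 74.5 TPM beside Rpl31 at 116, 79.6 and 75.8, and the libraries of the pair overlapped. In expected counts, however, Gm7536 came to 23.6% of Rpl27a and Rpl31-ps8 to 26.0% of Rpl31. Their mean effective lengths were 226 and 162 bases, and both had 0% own windows. Rps23-ps1, on the strand opposite exons of Gm5148, stood at 51.7, 77.3 and 68.8 TPM, below Rps23 in every library (lowest 139.9). The strand setting of the counting is not given, so reads of such opposed genes cannot be told apart. Gm10443 (Rps28) had 123, 131 and 97.2 expected counts (mean 53.6 TPM) and was listed at 0 est_counts.

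In 3 pairs, members had the same sequence as each other. Gm11518, in an intron of Spag9, and Rpl27-ps3 have the same 411-base sequence, which is also part of Rpl27. Both were given 843, 1052 and 946 expected counts, and both 804, 1017 and 864 est_counts. The deposited interval for Gm11518 in replicate 1 ran from 1.65 to 103 TPM around a value of 58.0. Gm15801 and Gm8783, copies of the phosphatase gene Ptp4a1, likewise shared a mean of 27.1 expected counts and 126 est_counts each. Gm10359 and Gm12671, both identical to Gapdh over their 1002 bases, did not always have equal counts. Each had 206.5 expected counts in replicate 1, but in replicate 2 they had 566 and 0.74, and both had 0 in replicate 3. Of these, Gm15801, Gm8783 and Gm12671 were named after their values were seen.

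Glycolytic enzyme copies numbered 5, of which 4 were at least 2-fold lower in est_counts and all 5 were below their match. Gapdh, which encodes an enzyme of glycolysis, matched 3 of them. The highest, Gm7336, had 580, 739 and 937 expected counts against 217, 126 and 121 est_counts, with no overlap. Together the 3 copies came to 3.22% of the parent's expected counts.

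Of 8 copies of translation factor genes, 4 were lower and 1 higher. The higher one was Tpt1-ps3, with 2024, 1157 and 1447 expected counts and 8307, 8314 and 5169 est_counts. Its parent Tpt1 stood at 670 ± 186 TPM (SD, n = 3) against 63.4 ± 24.7 for the copy. Gm6548, the elongation factor copy shown above, was named here after its values were seen. It had 1118, 1109 and 897 expected counts and 1205, 1196 and 991 est_counts, a log2 ratio of -0.11 ± 0.02, with 53.3% own windows and a posterior SD of 0.0387%. Its 13.3 ± 2.21 TPM came beside 1014 ± 188 TPM for Eef1a1.

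Among 3 copies of cytoskeletal genes, Gm12715 had 683, 1082 and 951 expected counts and 11.7, 0 and 6.61 est_counts. Its longest reading frame gives the same protein as Actg1, which held 78491 expected counts on average, and it overlaps an exon of Gm22801 on the same strand. AC113528.1, a 132-base copy of the thymosin gene Tmsb10, entered the list on a single count in replicate 2, which its short effective length turned into 6.83 TPM. Gm49195 and Rpl39-ps likewise rested on a mean of 0.333 expected counts, and 11 had a mean under 10.

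Gm10123, a copy of the prolyl isomerase gene Ppia, stood at 87.9, 38.2 and 44.3 TPM. Its 1791, 981 and 969 expected counts were set against 7452, 8970 and 6654 est_counts, while the pair with Ppia came to 28261 and 28566. The other copy in this family, Gm15459 (Hspa8, a chaperone), was lower in est_counts.

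Copies of histone and high mobility group genes, whose products package DNA, numbered 7, with 2 lower and 3 higher in est_counts. The highest was Gm15387, whose longest reading frame gives the protein of Hmgb1, with 393, 430 and 299 expected counts against 941, 1605 and 1083 est_counts. Of 6 copies of RNA-binding and splicing genes, 3 were lower and 2 higher. Gm7964, with 10 mismatches to Hnrnpk and 21.1% own windows, had 682, 1017 and 846 expected counts but 3.51, 3.89 and 3.78 est_counts, and Gm10052 (Hnrnpa1) had 98.3, 94.7 and 75.6 against 362, 1180 and 826. Gm8186 (Snrpg) stood at 12.8, 10.1 and 7.17 TPM and was within 2-fold.

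Of 7 copies of proteasome and ubiquitin genes, which mark and degrade proteins, 2 were lower and 1, Gm9762, was higher. The 2 copies of Rps27a were counted both in this family and among the ribosomal copies. Gm9762 (Ube2d2a) had 88.1, 69.4 and 136 expected counts and 519, 583 and 631 est_counts. Ube2n-ps1, in an intron of Clock, stood at 33.97, 31.04 and 23.53 TPM, and each of its libraries was below Ube2n (lowest 44.3). Of 6 mitochondrial and respiratory copies, 2 were lower and none was higher. They include the member with the highest mean TPM in the gene tables, Gm12338, in an intron of Pitpna, at 104, 218 and 144 TPM. That level came from a mean of 239.6 expected counts over a mean effective length of 17.6 bases, and by counts Gm12250 was the highest member, at a mean of 4219. Its parent Cox7c, a subunit of cytochrome c oxidase, stood at 123, 130 and 102 TPM. The single ferritin copy, Gm6977 (Fth1, the ferritin heavy chain), had 30.4 expected counts on average beside 1142139 for its parent.

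Outside the listed families were 78 members, of which 32 were lower and 7 higher. Gm13509 had 945, 1041 and 810 expected counts against 6.26, 9.11 and 16.9 est_counts, with the pair with Ap2m1 at 21240 and 22348. Further members with low ratios were Gm2423 (Ywhaq), Gm10698 (Tmed2) and, among ribosomal copies, Rpl3-ps1 (Rpl3), with means of 241, 205 and 304 expected counts and of 1.09, 0 and 5.48 est_counts. Gm12481 (Serf2), on the strand opposite exons of Fam221b, at 90.6, 84.6 and 60.1 TPM, was within 2-fold.

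**Figure D3:**
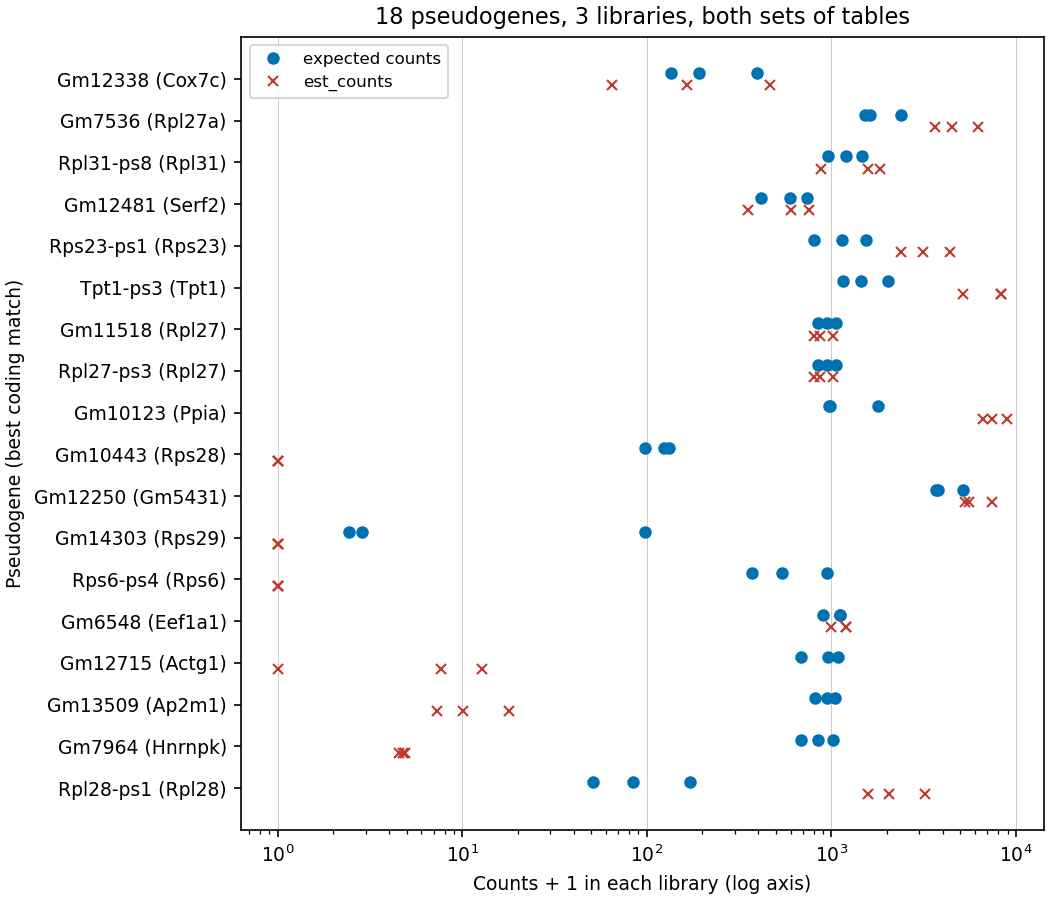
Counts + 1 (x, log axis) of the 12 pseudogenes with the highest mean TPM and of 6 described in the text, each with its best coding match in brackets, with 1 mark per library for expected counts (blue circles) and est_counts (red crosses). Marks at the left edge are libraries listed at 0, such as the 3 est_counts of Rps6-ps4 and Gm10443.

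The 3 members with 100% own windows all lay within 2-fold between the sets by CPM, although 1 of them rested on a single expected count. Gm12250, at chr11:58187739-58189012 on the plus strand, had a best match, Gm5431, that was only 68.5% identical. It had 5190, 3704 and 3763 expected counts and 7443, 5277 and 5555 est_counts, a log2 ratio of 0.30 ± 0.02, and a narrow deposited interval of 62.7 to 66.2 TPM in replicate 1 (the level of these intervals is not stated). RefSeq lists Gm12250, under the synonym Irgb10, as a protein-coding gene of the interferon-inducible GTPases. Gm17147 (Nudt1), in an intron of Hpgds, had 48, 64 and 76 expected counts and 108, 129 and 159 est_counts. As counts these were more than 2-fold apart in every library, and by CPM the log2 ratio was 0.80. The other was Gm49195, with 1 expected count in all. Its log2 ratio depended on the pseudocount, at 0.12 with 0.1 and 0.65 with 0.01.

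RefSeq (GRCm38.p6) had an entry for 148 members and called 144 pseudogenes, 17 of them transcribed pseudogenes (11.5% of those with an entry). That share was 3.45% for pseudogenes with a TPM above 0 but a mean under 1, and 1.44% for those at 0 TPM. The other 4 members (2.70%, against 1.12% and 1.31%) were coding in RefSeq. They were Gm12250, Ndufb4c (Ndufb4), Rpl34-ps1 (Rpl34) and H3f3c (H3f3a), the last 3 named after their values were seen. Ndufb4c stood at 37.2, 35.9 and 32.5 TPM and its 511 expected counts and 577 est_counts were close. It is identical to Ndufb4 over its whole length, with 0% own windows, so their reads cannot be told apart there. In mean TPM it stood above Ndufb4 (35.2 against 8.18), while Ndufb4 had 510 expected counts.

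As to position in the genome, no other annotated gene overlapped 108 members (62.4%), 50 lay within an intron (28.9%), 8 overlapped exons on the other strand and 7 overlapped exons on the same strand. Of pseudogenes with a TPM above 0 but a mean under 1, 53.9% had no overlapping gene and 39.5% lay within an intron. Over all 9943 processed pseudogenes these shares were 70.9% and 25.4%, so the members lay between the 2 sets. Among the 50 intronic members 23 were lower in est_counts, and among the 108 without overlap 54 were lower. In 3 members the match was a gene that overlapped the member itself: Gm43802 and Gm17084 on same-strand exons of Gbp7 and Ripk1, and Gm5831 opposite exons of Arhgef12. Reads there cannot be told apart. Away from the locus, the best match of Gm43802 was Lypla1 at 77.3% identity and that of Gm17084 was Psmb3 at 69.9%. The match lay on the same chromosome for 16 of 172 members. It did so for 113 of 1575 pseudogenes with a TPM above 0 but a mean under 1. Among those at 0 TPM in every library it did so for 711 of 8085.

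Levels were mostly below those of the match. In mean TPM 160 of 172 members were lower than their match, 156 of them in every library, and the median expected count of a member was 1.32% of its match's. In est_counts the median was 0.298%, and 154 of 172 were below the match in the second set's TPM. Of the 12 above their match, Gm6545 (Fam111a, at 29.9 against 16.8 TPM), BC023105 (Gm4841, 9.54 against 1.03) and Bambi-ps1 (Bambi, 9.08 against 0.217) had over 70% own windows and a posterior SD of 0%. Gm10557 (11.7 TPM) stood above Cdh11 with 4.08% own windows, and Gm12338 above Cox7c with none. In the second tables Gm12338 was below Cox7c, at a mean of 26.6 against 54.3 TPM, and in expected counts it came to 7.87% of Cox7c. These 5 were named after their values were seen, other than Gm12338.

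**Figure D4:**
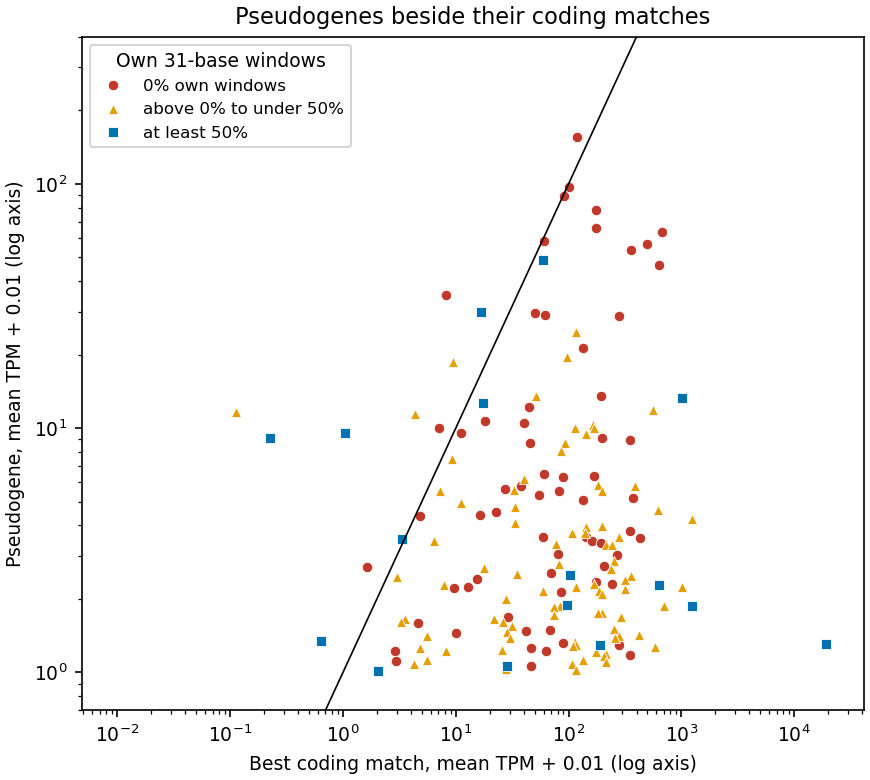
Mean TPM + 0.01 of the best coding match (x, log axis) against mean TPM + 0.01 of the pseudogene (y, log axis, from 0.7), 1 point per pseudogene with a match, coloured by own windows, with a line at equal levels. Of the 172 points 160 lie to the right of the line, and the 1 farthest right is Gm6977 beside Fth1 at 19315 TPM.

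Between libraries, counts were compared with a chi-square test of rounded expected counts against library totals, over the 13065 genes that reached a sum of 30, with Benjamini-Hochberg adjustment over all of them. Of 162 members tested, 105 (64.8%) varied beyond counting noise at an adjusted p under 0.05, against 69.3% of all genes, a share near the background. Without replicate 1 the count was 60 of 149, where 51.6% of all genes were called. In est_counts 84 of 101 tested members were called, against 72.1% of all genes. The test leaves out the error of dividing reads between genes. With the posterior SD added, 72 of 162 members were called, against 67.2% of all genes, so the share was then below the background. In replicate 1 TPM was highest for 106 members, in replicate 2 for 47 and in replicate 3 for 20 (61.3%, 27.2% and 11.6%). Coding genes at the same floor had 68.6%, 21.2% and 10.3%. By CPM of expected counts 79, 69 and 25 of the 173 members were highest in replicates 1, 2 and 3, against 24.0%, 40.2% and 35.8% of coding genes. The members' share was thus above that of coding genes in replicate 1 and below it in replicate 3. The libraries also differed in Malat1, a long RNA of the nucleus, at 112, 90.6 and 452 TPM in replicates 1, 2 and 3. Whether this bears on differences between the libraries was not tested. In bulk samples, fewer cells of a type and less RNA per cell cannot be told apart. The 5 members with the widest spread of log2(TPM + 1) were Gm14303, Gm49037, AC113528.1, Gm20689 and Gm10359.

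All of these but AC113528.1 had no own windows. Gm14303 (Rps29) had 136, 1.89 and 2.00 TPM from 96.3, 1.86 and 1.44 expected counts and was listed at 0 est_counts, while Rps29 stood at 776, 601 and 504 TPM. Gm49037 (Mapk6), inside an intron of Mapk8, had 0, 275 and 121 expected counts and 0, 152 and 0 est_counts. Gm20689 (Rab8b) had 78.2, 9.96 and 5.14 expected counts but 90.3, 306 and 55.6 est_counts, so its order of libraries differed between the sets.

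The threshold itself separated similar values. The lowest members were Gm19026 (1.00 TPM from a mean of 363 expected counts over 4530 bases), Rpl39-ps (1.02 TPM from 0.333 counts) and Gm4459 (1.03 TPM, with 2.54, 0.54 and 0). Just outside were Gm47727 (0.993 TPM), Rpl17-ps10 (0.987) and Gm8355 (0.983). A TPM above 0 in every library was seen for 161 members, a TPM of at least 1 in every library for 130, and a deposited lower bound of at least 1 TPM in every library for 83. By the second set's TPM 94 pseudogenes reached 1, of which 68 were members (39.3% of members and 72.3% of the 94). Of coding genes at 1 TPM in the first set, 87.3% reached it in the second.

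The share of all expression in processed pseudogenes depended most on 2 genes that were not members. In the gene tables all 9943 held 0.212%, 0.184% and 0.162% of TPM and 0.105%, 0.0980% and 0.0960% of expected counts in replicates 1, 2 and 3. In est_counts they held 6.13%, 5.12% and 9.27%. Gm12895 (chr4:122455210-122455435) and Gm12896 (chr4:122122847-122123072), both of 226 bases on the plus strand, were each given 1795100, 1519880 and 2564700 est_counts and 0 expected counts. Neither matched a coding transcript, each had 1.02% own windows, and both were chosen for these values. Which RNA these reads came from was not tested. The counts are part of the total behind est_counts CPM, and with CPM over coding genes alone the coding median log2 ratio was -0.0012 in place of -0.13. Without them the share of est_counts was 0.143%, 0.147% and 0.131%.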

How the data were processed

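Total RNA of 3 libraries of 1 group was analysed, with groups and replicate numbers from the labels. Expected counts, posterior means and standard deviations of counts, TPM and its interval were deposited by the authors in gene tables. The second set, estimated counts (est_counts) and TPM per transcript, was deposited by the authors too and summed per gene here. Build mm10 and GENCODE M21 are per the file headers and the text deposited with each library. Aligner, quantification tools and whether counting used strand: not given in the sources used here. Genes in both sets of tables were used (55450 of 55536), and CPM was taken over them.

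Matches are the highest-scoring hits of blastn 2.17.0 (expect value of at most 1e-05) among coding transcripts of other genes. Own windows were judged against annotated transcripts only, since no genome sequence was used here. Reading frames were the longest from a start to a stop codon in the transcript. Log2 ratios used a pseudocount of 0.1 CPM, which limits the size of ratios of low genes. The noise test was tested on simulated data. Alternatives used edgeR and DESeq2 scaling factors, other pseudocounts and minimums, and leaving out each replicate. Python packages were pandas, numpy, scipy and matplotlib.

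The members and lists were chosen with earlier results of these data known. The genes named were the 10 highest in TPM, the 8 lowest and 5 highest ratios at a mean of at least 10 expected counts, the 5 widest spreads, 3 genes on each side of the threshold, 3 with the most own windows, the highest of each family and their matches. All other members named in the text were chosen after their values were seen. The sequence of 1 copy and its parent is not reported here.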

Additional observations from a re-analysis of the deposited data

How the results depend on the processing

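The number of members was 260 at a floor of 0.5 TPM, 113 at 2 TPM and 94 with the second tables' TPM. Leaving out each replicate gave 158 to 186. The median log2 ratio over members was -0.30 with a pseudocount of 1, -1.53 with 0.01 and -1.15 for a mean of at least 10 expected counts, and ranged from -1.13 to -0.75 when each replicate was left out. With TPM in place of CPM it was -2.15, where the coding median was -1.08. Members at least 2-fold lower in est_counts numbered 42 with a pseudocount of 1, and 80 to 87 when each replicate was left out. The mean share of pseudogenes was 0.186% of TPM, 32.7% of the second tables' TPM, 0.0996% of expected counts and 6.84% of est_counts. It was 0.140% of est_counts without Gm12895 and Gm12896, chosen after seeing the data. The count of members varying beyond noise fell from 105 to 60 without replicate 1, where 51.6% of all genes were called, and was 80 at most when each replicate was left out. Adding the posterior SD to the counting error, also chosen after seeing the data, left 72 of 162 members against 67.2% of all genes. For the 38 named members 208 of 266 alternative ratios stayed within 1 SD over libraries, 58 moved further and none of those past 2-fold changed sign. No paired analysis was possible because there was 1 group. Depth limits the 11 members with a mean under 10 counts.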

Other observations

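The members described here were picked out after the values were seen and are given without a test. Gm12250 (Gm5431) stood at 65.5, 38.0 and 43.0 TPM in replicates 1, 2 and 3. BC023105 (Gm4841) stood at 15.3, 5.25 and 8.03 TPM, and Gm5970 (Iigp1, an interferon-inducible GTPase) at 3.91, 1.68 and 1.91. Gm6545 (Fam111a), in an intron of A330040F15Rik, had 46.7, 17.5 and 25.6 TPM. All 4 were highest in replicate 1 by TPM and by CPM, as 68.6% of coding genes were by TPM and 24.0% by CPM, and had over 70% own windows. Their matches were highest there too, with Iigp1 at 155, 69.9 and 86.0 TPM and Gm5431 at 80.1, 47.4 and 52.3. Gm43802 overlaps same-strand exons of Gbp7, its match, and Gm18852 (Gvin1) overlaps exons of another gene on the same strand. Gm43802 and Gm18852 had 0% and 0.898% own windows. They stood at 14.0, 11.1 and 11.5 TPM and at 4.11, 2.98 and 2.92 TPM.

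Bambi-ps1, a copy of the BMP and activin membrane-bound inhibitor gene Bambi at 88.6% identity, had 424, 223 and 174 expected counts and 668, 361 and 318 est_counts. Bambi itself stood at 0.21, 0.24 and 0.20 TPM. Outside the members, Gm19220 was listed at 0 expected counts but had 8533, 1948 and 2911 est_counts, with 99.3% own windows. Vamp7-ps, with 100% own windows, had 532, 586 and 438 est_counts and 0 expected counts. Gm7295 had 728, 2 and 2 est_counts and 0 expected counts. The 226-base sequences of Gm12895 and Gm12896 and these 3 genes were chosen for their est_counts.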
